A study of Homo sapiens with 8 samples.

Results

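The HOX genes were described here by every probe set whose only gene symbol in the platform annotation is HOXA, HOXB, HOXC or HOXD followed by a number. This gave 31 of the 22277 probe sets of the array (22215 without the array controls), for 24 of the 11963 genes named by a single symbol. The HOXA cluster was represented by 1 probe set (HOXA2), HOXB by 13 probe sets of 9 genes, HOXC by 7 of 7 genes and HOXD by 10 of 7 genes, so the HOXA cluster is described by a single gene and the other HOXA genes were not analysed here. The study measured expression on 8 arrays of OVCAR-3, CAOV-3, DOV-13 and SKOV-3, established human lines from ovarian cancers, with 1 array of cells given pI:pC and 1 of untreated cells from each. pI:pC (polyriboinosinic:polyribocytidylic acid) mimics the double-stranded RNA of viruses, and the labels do not say which concentration or exposure time an array had. All lines were grown in the same serum-containing medium, per the labels' protocols. The labels do not say whether the RNA of an array came from 1 culture or from several. The values are RMA levels on the log2 scale.

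HOX genes encode transcription factors with a homeodomain that give cells their position along the body axis. In humans they lie in clusters on chromosomes 7 (HOXA), 17 (HOXB), 12 (HOXC) and 2 (HOXD), and genes of low number act toward the head and genes of high number toward the tail. In adult tissues the pattern of HOX expression marks where a cell came from, and it is often changed in carcinomas. HOX proteins bind DNA together with homeodomain partners of the PBX, MEIS and PKNOX (TALE) families, while Polycomb complexes keep the clusters silent and trithorax-type complexes keep them active.

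Of 10 markers of ovarian carcinoma epithelium, 10 lay at or above the array median on both arrays of OVCAR-3, 8 in CAOV-3, 6 in SKOV-3 and 5 in DOV-13, where 48.6% to 48.9% of all probe sets did. The markers were read on each gene's brightest probe set and that share counts every probe set, so the sets are unlike. The defining lineage factor PAX8 had line means between 8.08 and 10.57, while the adhesion gene CDH1 was at 3.81 in SKOV-3 and 3.77 in DOV-13 against 9.60 in CAOV-3 and 9.47 in OVCAR-3. By the same rule 0 of 4 leukocyte and 0 of 3 endothelial markers were counted in each line, and 1 of 4 fibroblast markers. The leukocyte marker CD14 was above the median on the untreated CAOV-3 array (7.06) and not on the treated one (6.15). The medians of the 8 arrays lay between 6.19 and 6.30.

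The upstream sequence is shown for HOXA2, which reached the array median in OVCAR-3 alone. It is also shown for HOXC4 and HOXC5, which have the same window yet were ordered differently across the lines. RefSeq windows were at hand for 10 of the 24 genes. HOXB2, HOXB6, HOXB7 and HOXC6, described in most detail here, were not among them, but the RefSeq gene table gives HOXC6 the same start as HOXC4 and HOXC5, so the window shown precedes that start as well. Each window holds the 250 bases before the annotated start in GRCh38.p14, written 5′ to 3′ in the direction of the gene, at chr7:27102684-27102933 on the minus strand for HOXA2 and at chr12:54016638-54016887 on the plus strand for HOXC4 and HOXC5. Capitals mark matches to the HOX-PBX motif TGATNNAT on either strand.
HOXA2: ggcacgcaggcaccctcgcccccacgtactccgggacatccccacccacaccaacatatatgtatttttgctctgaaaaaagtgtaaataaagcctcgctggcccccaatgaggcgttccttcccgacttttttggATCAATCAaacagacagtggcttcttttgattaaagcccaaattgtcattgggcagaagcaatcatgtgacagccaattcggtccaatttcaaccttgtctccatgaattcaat
HOXC4 and HOXC5: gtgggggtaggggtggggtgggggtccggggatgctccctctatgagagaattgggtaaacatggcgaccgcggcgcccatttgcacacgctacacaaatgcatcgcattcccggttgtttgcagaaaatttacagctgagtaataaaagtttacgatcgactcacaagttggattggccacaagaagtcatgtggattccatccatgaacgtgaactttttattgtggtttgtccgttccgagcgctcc

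The HOXA2 window holds 1 match to TGATNNAT, on the opposite strand and beginning 114 bases before the start, and the shared HOXC4 and HOXC5 window holds none. Of 34943 windows of the same length, 6.49% hold the motif, and the windows of HOXB1 and HOXD11 do so as well. The TATA box letters TATAAA and an interferon response element (a pair of GAAA blocks 2 bases apart), also searched on both strands, are in 10.8% and 3.02% of all windows and in neither sequence shown. Of the 10 genes only HOXD13 has the TATA box letters, and none has the interferon element. The HOXA2 window has 8 CG pairs and the HOXC4 and HOXC5 window 14, against a median of 11. These are matches of letters in a window and were not set against any measurement of binding.

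In all 4 lines some HOXB, HOXC and HOXD probe sets reached the array median on both arrays. Levels differed between the lines for some HOX genes. HOXB2, HOXB5, HOXB6 and HOXB7 were highest in SKOV-3 or DOV-13, HOXC6, HOXC10 and HOXC13 in CAOV-3, and HOXA2 in OVCAR-3, which had the lowest levels of HOXB2 and HOXB7. A probe set was counted as present in a line when both arrays of the line reached the array median, a stand-in for a detection call, which the values do not hold. In SKOV-3 this was true of 7 of 13 HOXB, 3 of 7 HOXC and 2 of 10 HOXD probe sets. In DOV-13 it was true of 7 HOXB, 4 HOXC and 2 HOXD, in CAOV-3 of 5 HOXB, 5 HOXC and 2 HOXD, and in OVCAR-3 of 5 HOXB, 3 HOXC and 1 HOXD. HOXA2 was counted in OVCAR-3 alone. In all, 12 HOX probe sets (38.7%) were counted in SKOV-3, 13 (41.9%) in DOV-13, 12 in CAOV-3 and 10 (32.3%) in OVCAR-3, where the same rule counts 48.6%, 48.9%, 48.6% and 48.8% of all probe sets. Each line was thus below the share seen over the whole array. At the 75th percentile of the array in place of the median the counts were 5 in SKOV-3, 4 in DOV-13, 3 in CAOV-3 and 2 in OVCAR-3. There the HOXD count was 0 in every line and the HOXC count 0 in all but CAOV-3, while HOXB probe sets were still counted in each. At the 60th percentile the HOXD count was already 0 in SKOV-3, DOV-13 and OVCAR-3, and the HOXC count 0 in SKOV-3. Probe sets differ in brightness, so a count says less than the comparison of the same probe set between lines. In bulk RNA, fewer cells with a transcript and less of it per cell cannot be told apart.

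Across all 8 arrays 8 HOX probe sets stayed at or above the median, against 40.2% of all probe sets. They belonged to HOXB2, HOXB5 (its brighter probe set), HOXB7 (with all 3 of its probe sets), HOXC4, HOXC11 and HOXD1 (its brighter probe set). The dimmer probe set of HOXB5 lay below the median in CAOV-3 and OVCAR-3, and that of HOXD1 on every array. Below the median on every array were 14, against 40.1% of all probe sets, among them the single probe sets of HOXB1, HOXB3, HOXB8, HOXB9, HOXB13, HOXC13, HOXD10, HOXD11 and HOXD12 and both of HOXD13.

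**Figure D1:**
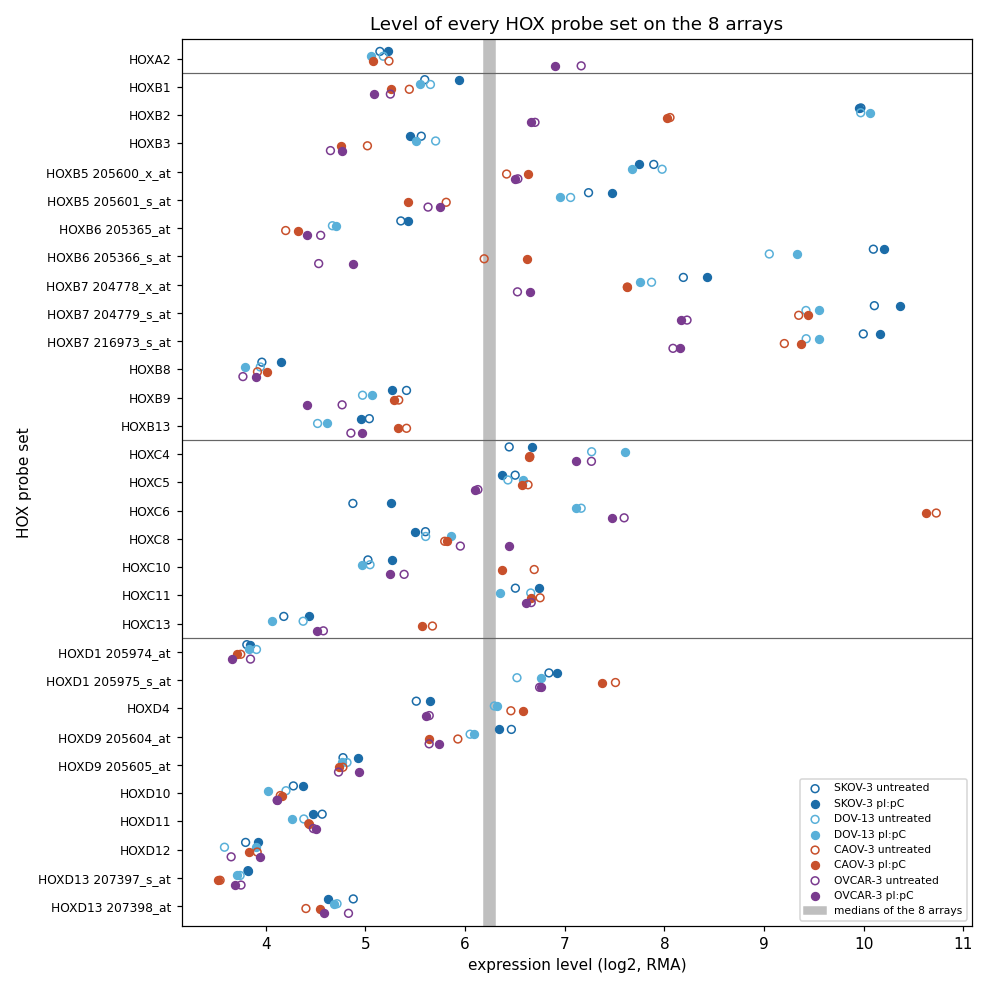
Level of all 31 HOX probe sets (log2, RMA, horizontal axis) on the 8 arrays, by cluster and gene number; open points are untreated and filled points pI:pC arrays, and the grey band spans the array medians of 6.19 to 6.30. HOXB2, HOXB5, HOXB6 and HOXB7 separate by line, HOXC6 spans from SKOV-3 near 5 to CAOV-3 near 10.7, and most HOXD probe sets lie left of the band in every line.

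Differences between the lines were tested over all probe sets with limma's moderated F test, with the treatment as a covariate and Benjamini-Hochberg adjustment. Each line had 2 arrays, so the error is the spread between its treated and untreated array after the mean treatment difference is removed, which may be smaller than the spread between separate cultures. At an adjusted p under 0.05 the test called 22 of the 31 HOX probe sets (71%), 12 of 13 in HOXB, 6 of 7 in HOXC, 3 of 10 in HOXD and HOXA2. Over all probe sets it called 65.5%, so the share among HOX probe sets is close to that of the array. With a range of line means of at least 1 on the log2 scale also required, 12 HOX probe sets were called (38.7%, against 32.9% of all), 8 of them HOXB, 3 HOXC and HOXA2. A range of at least 2 was reached by 4 HOX probe sets (12.9%, against 10.8% of all), those of HOXB2, HOXB6, HOXB7 and HOXC6. The median range was 0.81 over the HOX probe sets and 0.64 over all.

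Toward the head end of the HOXB cluster, HOXB2, which helps pattern the hindbrain in the embryo, was high in 2 lines and low in OVCAR-3. Its log2 level was 9.97 untreated and 9.95 with pI:pC in SKOV-3, 9.97 and 10.06 in DOV-13, 8.06 and 8.03 in CAOV-3, and 6.70 and 6.67 in OVCAR-3. SKOV-3 and DOV-13 overlapped, while CAOV-3 and OVCAR-3 were each apart from the rest on both arrays. The range of line means was 3.33 (limma F test, adjusted p = 1.25e-07). OVCAR-3 lay below the mean of the other 3 lines by a difference of -2.66 (95% interval -2.82 to -2.49, limma adjusted p = 1.15e-07). Without OVCAR-3 the range was 1.97.

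HOXB6, a mid-cluster gene also active in blood cell precursors, showed the widest range of the HOXB cluster with the brighter of its 2 probe sets. There it measured 10.10 untreated and 10.20 with pI:pC in SKOV-3, 9.05 and 9.33 in DOV-13, 6.19 and 6.62 in CAOV-3, and 4.53 and 4.88 in OVCAR-3. The lines did not overlap, in the order SKOV-3, DOV-13, CAOV-3, OVCAR-3. Line means ranged over 5.44 (limma F test, adjusted p = 3.71e-08), with SKOV-3 3.38 above the mean of the other lines (95% interval 3.19 to 3.58) and OVCAR-3 at -3.88 (-4.07 to -3.68). The dimmer probe set of HOXB6 lay below the array median on every array, ranged over 1.13 and had CAOV-3, not OVCAR-3, as its lowest line.

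The 3 probe sets of HOXB7, a gene studied in breast and ovarian carcinoma, gave the same order of the line means. On the brightest the level was 10.11 untreated and 10.36 with pI:pC in SKOV-3, 9.42 and 9.56 in DOV-13, 9.35 and 9.44 in CAOV-3, and 8.23 and 8.17 in OVCAR-3. SKOV-3 was above and OVCAR-3 below all other arrays, and DOV-13 and CAOV-3 overlapped. From the brightest to the dimmest the ranges were 2.04, 1.96 and 1.72 (limma F test, adjusted p = 6.01e-06, 2.89e-06 and 1.85e-05). On the brightest the range was 0.84 without OVCAR-3 and 1.29 without SKOV-3.

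HOXB5, which lies beside HOXB6, separated the lines into pairs on both of its probe sets. The brighter had line means of 7.82 in SKOV-3 and 7.82 in DOV-13 against 6.53 in CAOV-3 and 6.52 in OVCAR-3, and the dimmer 7.36 and 7.01 against 5.62 and 5.69. All 4 arrays of SKOV-3 and DOV-13 were above all 4 of CAOV-3 and OVCAR-3. This separation held for 9 of the 13 HOXB probe sets, of HOXB1, HOXB2, HOXB3, HOXB5, HOXB6 and HOXB7, and for 1 HOXD probe set of HOXD9. For HOXB5 and HOXB6 it was found on both probe sets and for HOXB7 on 2 of 3. Over the 31 HOX probe sets that is 10, where 15.6% of all probe sets separate this way. The opposite separation was found for 2, of HOXC6 and HOXC13 (9.25% of all). The pairing of lines was chosen after the values were seen. The other HOXB genes had smaller ranges, 0.60 for HOXB1, 0.90 for HOXB3, 0.22 for HOXB8, 0.75 for HOXB9 and 0.81 for HOXB13, and all 5 lay below the array median on every array. HOXB13, known as a prostate lineage gene, was lowest in DOV-13 and highest in CAOV-3.

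HOXC6, a gene of the trunk region that is raised in several carcinomas, had the widest range of all HOX probe sets. Its level was 4.88 untreated and 5.25 with pI:pC in SKOV-3, 7.16 and 7.11 in DOV-13, 10.73 and 10.62 in CAOV-3, and 7.60 and 7.47 in OVCAR-3. CAOV-3 was far above and SKOV-3 far below the other lines on both arrays, and DOV-13 and OVCAR-3 lay close together without overlap. The range of line means was 5.61 (limma F test, adjusted p = 1.79e-07). CAOV-3 was 4.10 above the mean of the other lines (95% interval 3.84 to 4.35) and SKOV-3 was at -3.38 (-3.64 to -3.13). The range was 2.47 without CAOV-3 and 3.54 without SKOV-3.

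HOXC10 and HOXC13, toward the tail end of the HOXC cluster, were also highest in CAOV-3. HOXC10, which acts in the lumbar region and hind limb, measured 6.69 untreated and 6.37 with pI:pC in CAOV-3, and between 4.97 and 5.39 on the other 6 arrays. HOXC13, a gene of hair and nail, measured 5.67 and 5.56 in CAOV-3, under the array median, and between 4.06 and 4.58 elsewhere. CAOV-3 differed from the mean of the other lines by 1.37 (95% interval 1.12 to 1.63, limma adjusted p = 2.63e-05) for HOXC10 and by 1.26 (1.01 to 1.51, limma adjusted p = 3.99e-05) for HOXC13. HOXC11, which lies between them, had a range of 0.20 and did not pass the F test (limma adjusted p = 0.561). HOXC4 was highest in DOV-13 with a line mean of 7.44 and lowest in SKOV-3 with 6.56. HOXC5, with which it shares the window shown, was highest in CAOV-3 with 6.60 and lowest in OVCAR-3 with 6.12. HOXC8 was highest in OVCAR-3 with 6.20 and lowest in SKOV-3 with 5.55. Adjusted p in limma's F test was 0.00101 for HOXC4, 0.0112 for HOXC5 and 0.0201 for HOXC8.

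HOXA2, which patterns the hindbrain and the second pharyngeal arch, was higher in OVCAR-3 than in the other lines. There it was counted at the 60th percentile of the array and not at the 75th. Its level was 7.17 untreated and 6.90 with pI:pC in OVCAR-3, 5.15 and 5.22 in SKOV-3, 5.18 and 5.06 in DOV-13, and 5.24 and 5.08 in CAOV-3. The other 6 arrays overlapped with each other and lay well below both OVCAR-3 arrays. The difference between OVCAR-3 and the mean of the other lines was 1.88 (95% interval 1.68 to 2.08, limma adjusted p = 1.43e-06).

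HOXD genes varied little. Of the 10 probe sets, 3 passed the F test, those of HOXD4 (range 0.94, limma adjusted p = 6.63e-05), HOXD1 (brighter probe set, range 0.80, adjusted p = 0.00104) and HOXD9 (brighter probe set, range 0.72, adjusted p = 0.00231). HOXD4 had line means of 6.52 in CAOV-3 and 6.31 in DOV-13 against 5.63 in OVCAR-3 and 5.58 in SKOV-3. HOXD1 was highest in CAOV-3 with 7.44 and HOXD9 in SKOV-3 with 6.40. The dimmer probe sets of HOXD1 and HOXD9 lay below the array median everywhere and had ranges of 0.14 and 0.09. HOXD10, HOXD11, HOXD12 and HOXD13, the genes of limb and genital development, had line means between 3.53 and 4.75, and their ranges ran from 0.13 to 0.29. RMA compresses differences between dim probe sets, so small ranges at these levels do not show equal expression.

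**Figure D2:**
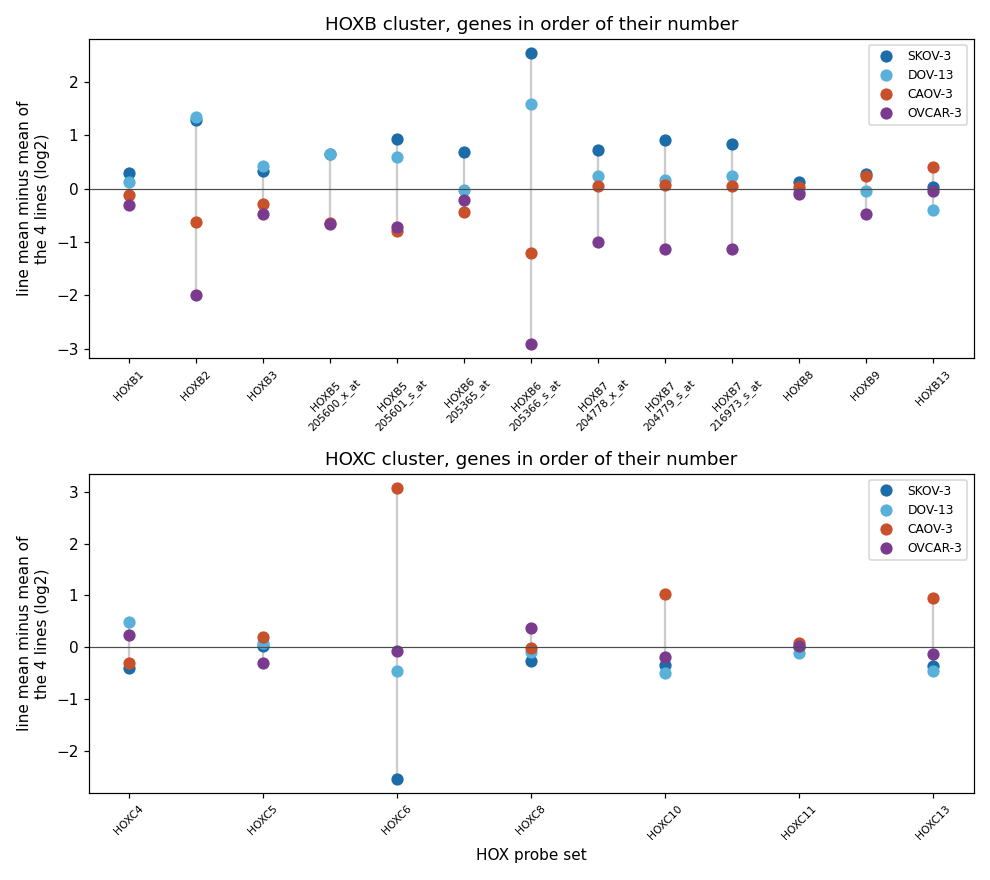
Line mean (of the treated and untreated array) minus the mean of the 4 lines (log2, vertical axis) for the HOXB and HOXC probe sets in order of gene number; the grey bar spans the 4 lines. In HOXB the spread is widest at HOXB2 (3.33) and HOXB6 (5.44), and in HOXC it is widest at HOXC6 (5.61), with CAOV-3 on top at HOXC6, HOXC10 and HOXC13.

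Set against the mean of the other 3 lines, at an adjusted p under 0.05 and a difference of at least 1 on the log2 scale, SKOV-3 had 5 HOX probe sets higher (16.1%), all HOXB, where 4.38% of all probe sets were called, and 1 lower, HOXC6 (5.04% of all). DOV-13 had 2 higher, of HOXB2 and HOXB6 (4.71% of all), and 0 lower (4.45% of all). With the adjusted p alone 6 HOX probe sets were lower in DOV-13. CAOV-3 had 3 higher, all HOXC (6.9% of all), and 2 lower, of HOXB5 and HOXB6 (5.38% of all). OVCAR-3 had HOXA2 higher (5.81% of all) and 5 HOXB probe sets lower, of HOXB2, HOXB6 and all 3 of HOXB7 (6% of all). These counts shift with the lines compared. Without OVCAR-3 the higher count was 2 in SKOV-3 and 1 in DOV-13, and the lower count 4 in CAOV-3. Without DOV-13 it was 8 higher in SKOV-3, and 1 lower in CAOV-3. Without SKOV-3 it was 4 higher and 1 lower in DOV-13, and 0 lower in CAOV-3, and without CAOV-3 it was 2 higher in OVCAR-3.

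Between pairs of lines, SKOV-3 and DOV-13 had the fewest HOX differences. Their line means differed by at least 1 for 1 HOX probe set, that of HOXC6 (3.23%, against 8.93% of all probe sets). For the other pairs the HOX count was 7 to 9 of 31, from 22.6% for DOV-13 and CAOV-3 to 29% for SKOV-3 and OVCAR-3 and for CAOV-3 and OVCAR-3, where 15.5%, 15% and 15.4% of all probe sets differed as much. Both arrays of SKOV-3 were above the other 6 arrays for 9 HOX probe sets (14.8% of all) and below them for 2 (10.2% of all). For DOV-13 these counts were 1 (13.7% of all) and 2 (9.85% of all), and for CAOV-3 6 (15.1% of all) and 3 (18.7% of all). For OVCAR-3 they were 2, HOXA2 and HOXC8 (16.3% of all), and 8, of which 7 were HOXB (16.8% of all). The median absolute difference over the HOX probe sets was 0.19 between SKOV-3 and DOV-13, equal to that of all probe sets to 2 decimals. It was 0.23 between DOV-13 and CAOV-3, against 0.27 over all. For the other pairs it was 0.38 to 0.60, the highest for SKOV-3 and OVCAR-3, against 0.27 to 0.28 over all. The line with the highest level was the same in untreated and treated arrays for 20 of 31 HOX probe sets (64.5%, against 68% of all).

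No HOX probe set passed the test for an effect of pI:pC shared by the lines. With the cell line as a block, limma called the mean difference between treated and untreated arrays for 0 HOX probe sets in either direction (0% of all probe sets were called higher and 0% lower). No HOX probe set had an adjusted p below 0.996. Before adjustment 1 of 31 had a p under 0.05 (3.23%), against 3.85% of all probe sets. The mean change was positive for 15 and negative for 16 HOX probe sets, with a median of -0.016 against 0.006 over all probe sets. The 95% intervals of the 31 mean changes together ran from -0.31 to 0.46 on the log2 scale, so a shared change of 1 lay outside each of them. With 1 array per condition in each line the number of arrays limits the precision.

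HOXB6, on its brighter probe set, had the largest mean change, 0.29 ± 0.14 (SD, n = 4 lines), and was higher with pI:pC in 4 of 4 lines. The treated minus untreated difference was 0.11 in SKOV-3, 0.28 in DOV-13, 0.43 in CAOV-3 and 0.35 in OVCAR-3. Its dimmer probe set had a mean change of 0.02 ± 0.11 and was higher in 3 of 4 lines. The 95% interval of the brighter was 0.12 to 0.46, and the change did not pass over all probe sets (limma adjusted p = 0.996). A single sign in all 4 lines was also seen for the middle of the HOXB7 probe sets by brightness, at 0.13 ± 0.05. That is 2 of 31 probe sets (6.45%), against 11.5% of all. The brightest HOXB7 probe set was lower with pI:pC in OVCAR-3 (-0.058), and the dimmest in DOV-13 (-0.119) and CAOV-3 (-0.006).

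Next in size were HOXC8 at 0.17 ± 0.26 and HOXD12 at 0.16 ± 0.18 on the higher side (SD, n = 4 lines). HOXC8 went from 5.95 to 6.45 in OVCAR-3, 5.61 to 5.86 in DOV-13, 5.80 to 5.82 in CAOV-3 and 5.60 to 5.50 in SKOV-3. The OVCAR-3 difference of 0.49 was the largest of any HOX probe set in any line. HOXD12 stayed between 3.59 and 3.94 on all 8 arrays, far below the array medians. On the lower side HOXA2 had -0.12 ± 0.14, HOXB3 -0.12 ± 0.17 and HOXB9 -0.11 ± 0.19, each lower with pI:pC in 3 of 4 lines. In OVCAR-3, where HOXA2 was highest, its difference was -0.27. None of these passed in limma (adjusted p = 0.996 for each). Single lines moved these means: without OVCAR-3 HOXC8 was at 0.059, HOXA2 at -0.068 and HOXB9 at -0.032, and HOXB3 at -0.19. Without CAOV-3 HOXB3 was at -0.066, without SKOV-3 HOXC8 was at 0.26 and HOXA2 at -0.18, and without DOV-13 HOXB9 was at -0.18.

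**Figure D3:**
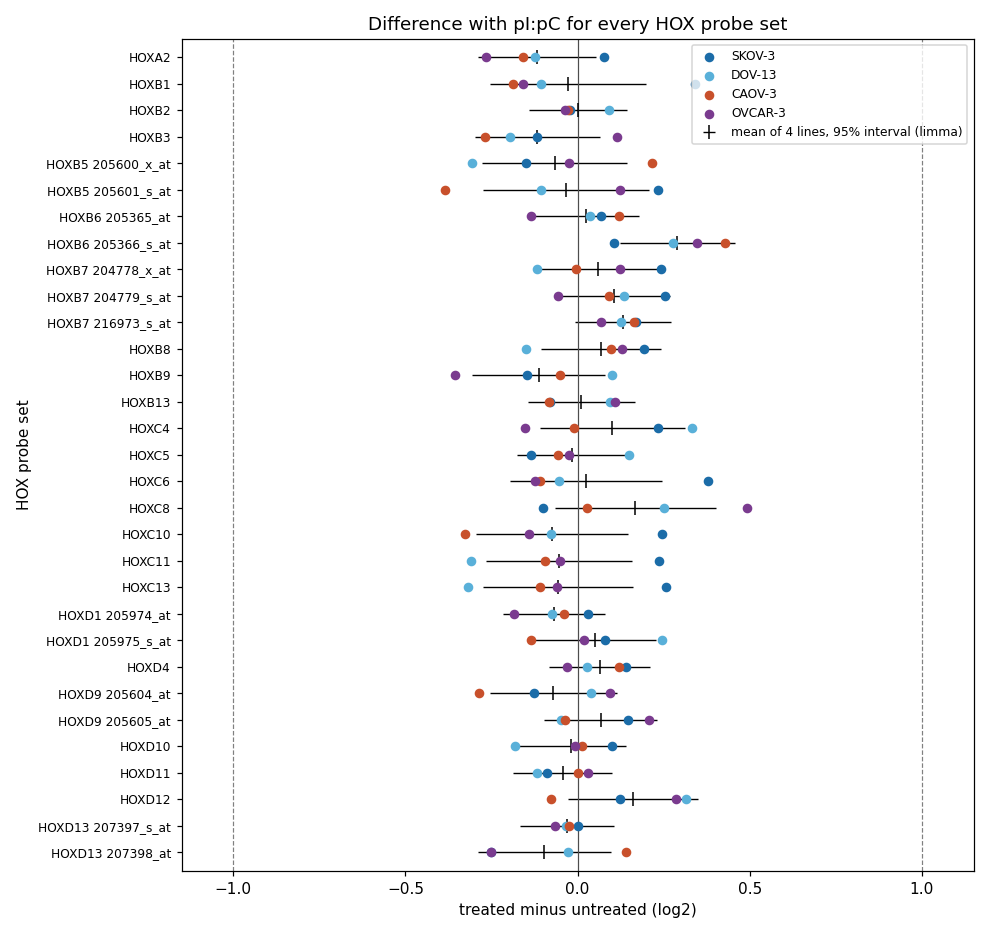
Treated minus untreated difference (log2, horizontal axis) of the 31 HOX probe sets; coloured points are the 4 lines, and the tick and black bar are the mean and its 95% interval from limma. All points lie between -0.39 and 0.49, inside the dashed lines at -1 and 1.

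Within single lines the treated and the untreated array of no HOX probe set lay 1 log2 unit or more apart. With 1 array per condition a line has no test. Among all probe sets 0.774% were at least 1 higher and 0.14% at least 1 lower in CAOV-3, 0.162% and 0.009% in OVCAR-3, 0.0225% and 0.018% in DOV-13, and 0.0045% and 0.027% in SKOV-3. The median HOX difference was 0.10 in SKOV-3, with 20 higher, 10 lower and 1 equal, where the median of all probe sets was 0.012 and 53.1% were higher. In DOV-13 it was -0.03 with 14 higher and 17 lower, where the median of all was 0.036 and 60.8% were higher. In CAOV-3 it was -0.04 with 11 higher and 20 lower, where all had -0.013 and 46.8%. In OVCAR-3 it was -0.03 with 13 higher and 18 lower, where all had -0.008 and 47.4%. The HOX median was thus above that of the array in SKOV-3 and below it in the other lines. The median absolute difference of the HOX probe sets was 0.14 in SKOV-3, 0.12 in DOV-13, 0.10 in CAOV-3 and 0.12 in OVCAR-3, close to the 0.11, 0.10, 0.12 and 0.09 of all probe sets.

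Some partners of HOX proteins differed between lines as well. Of 6 measured TALE cofactor genes, 5 passed the F test between lines (65.5% of all probe sets did, and 69.7% with 1 probe set per gene). In each line 4 or 5 of the 6 reached the array median. Among probe sets with a mean level at or above the median 91.8% passed, and against that share the count of 5 does not stand out. MEIS1, which stabilises HOX binding, had line means of 9.33 in OVCAR-3, 7.52 in DOV-13, 6.12 in CAOV-3 and 6.05 in SKOV-3. Its highest line was that of HOXA2, and also that of EMX2, PAX8, WT1 and MUC16 among the other genes listed. A link between MEIS1 and HOXA2 was not tested. MEIS2 was highest in DOV-13 with 9.05 and lowest in SKOV-3 with 7.27, PBX2 highest in CAOV-3 with 6.80 and lowest in DOV-13 with 4.84, and PKNOX1 highest in DOV-13 with 7.65 and lowest in CAOV-3 with 6.60. For none of the 6 was treated minus untreated called in limma, and their median mean change was -0.10.

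Regulators of the clusters were read against the 65.5% of all probe sets that passed the F test and the 32.9% that also had a range of at least 1. With only the brightest probe set of each gene, as used for these lists, 69.7% passed. Among probe sets with a mean level at or above the median, 91.8% passed. Of the 18 Polycomb genes 16 or 17 reached the array median in each line, so their share is to be read against the latter. Most of the 9 trithorax and H3K27 demethylase genes, 6 or 7 in each line, did so as well. Of 18 measured Polycomb genes 16 passed and 8 also had a range of at least 1, led by PHC3 at 1.34, RING1 at 1.27, PCGF3 at 1.24 and CBX7 at 1.16. The highest line mean of PHC3, that of CAOV-3, joins 6.637 untreated and 7.455 with pI:pC. Untreated OVCAR-3, at 6.66, was above untreated CAOV-3. The catalytic subunit gene EZH2 had line means between 8.58 and 9.28. Of 9 trithorax and H3K27 demethylase genes 8 passed, and only the methyltransferase gene KMT2A exceeded a range of 1, with 9.23 in CAOV-3, 8.43 in SKOV-3, 8.04 in DOV-13 and 7.49 in OVCAR-3. RBBP5, ASH2L and KDM6A ranged over 0.66, 0.66 and 0.64. Of 15 upstream regulators and retinoid genes 6 passed, led by the retinoic acid hydroxylase gene CYP26B1 at a range of 1.55, RXRA at 1.19, RARB at 0.87 and RXRB at 0.67. Treated minus untreated was called for 0 genes of these lists in either direction.

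Of 9 measured developmental genes of the urogenital tract (homeobox and PAX genes and the zinc finger gene WT1), 8 passed the F test and 6 also had a range of at least 1. Over all probe sets 65.5% passed and 32.9% also had such a range, and 69.7% passed with 1 probe set per gene. The median range of the 9 genes, each by its brightest probe set, was 1.91, that of WT1. Over all probe sets, with the dimmer ones of a gene included, it was 0.64, so these medians are of unlike sets. EMX2, which is needed for the kidneys and the genital tract, had a line mean of 9.89 in OVCAR-3 and between 3.69 and 3.74 in the others. LHX1, an early regulator of kidney and Müllerian duct, was at 9.45 in SKOV-3, 8.26 in DOV-13, 6.33 in OVCAR-3 and 4.88 in CAOV-3. MSX1 was highest in CAOV-3 with 8.65 and lowest in OVCAR-3 with 5.75, and PAX8 highest in OVCAR-3 with 10.57 and lowest in CAOV-3 with 8.08. Treated minus untreated was called for 0 of the 9 in either direction.

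**Figure D4:**
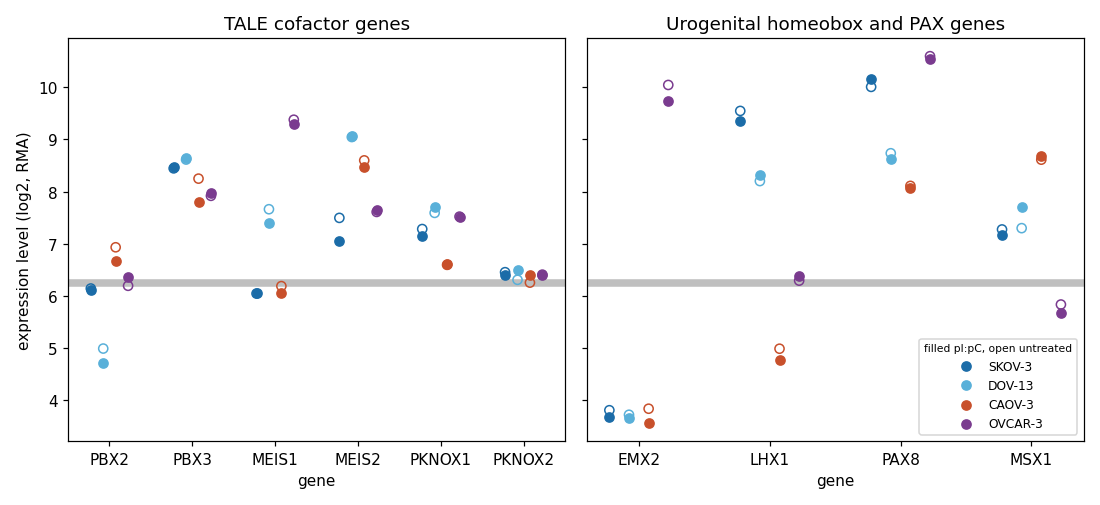
Level (log2, RMA, vertical axis) of 6 TALE cofactor genes (left) and of the 4 urogenital homeobox and PAX genes with the widest range (right); open points are untreated and filled points pI:pC arrays, and the grey band spans the array medians. MEIS1 (line mean 9.33) and EMX2 (9.89) are highest in OVCAR-3.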

How the data were processed

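The values the authors deposited are log2 levels. The submitters' processing notes name RMA, with its version and the arrays it was run over not stated in the labels. RMA by its usual definition corrects background, brings arrays to 1 distribution and summarises probe sets. Of 22215 probe sets that are not array controls, 19064 have a single symbol, 1043 have several and 2108 stayed unnamed. All 31 HOX probe sets matched a RefSeq gene of the same symbol by gene identifier.

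A linear model (limma version 3.58.1 under R version 4.3.3, with eBayes moderation) was fitted to all 22215 probe sets, two-sided, with Benjamini-Hochberg adjustment and a threshold of 0.05, with 3 residual and 4.59 prior degrees of freedom. The cell line, given in the labels, paired the arrays of a line, whose deviations from the group means correlated at 0.936 to 0.965. The p-values rest on the spread between these arrays that is left after line and treatment are fitted. The fits were tested on simulated data. Values on every array are given for probe sets ranging over at least 2 between lines and for the 3 largest mean changes each way. HOXA2, HOXB5, HOXC10, HOXC13 and further HOX genes, EZH2 and CDH1 were described after their values were seen. Of each list of other genes the 4 widest ranges are named, using each gene's brightest probe set. Members, lists and rules were chosen with earlier results of these data known. Alternatives were a low value filter, 1 probe set per gene, quantile normalization again, median centring, eBayes with trend and robust, leaving out each line, no block, no treatment term and other thresholds.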

Additional observations from a re-analysis of the deposited data

Results flagged for a closer look

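HOXA2 in OVCAR-3 stood apart from the other 3 lines both untreated (7.17, the others between 5.15 and 5.24) and with pI:pC (6.90, the others between 5.06 and 5.22). The difference between treated and untreated HOXB2 in DOV-13 (0.092) stood apart from the other lines, which lay between -0.04 and -0.02. It was no larger than the median absolute difference of all probe sets in DOV-13 (0.095). The treated minus untreated difference of HOXC6 in SKOV-3 (0.38) stood apart from -0.13 to -0.05 in the other lines. HOXC6 was at its dimmest in SKOV-3. These 4 came from 27 groups of 4 values (9 HOX probe sets, each untreated, treated and as the difference). By chance a gap of this relative size arises in about 5% of such groups when the values are not selected. The 9 probe sets were those with a range of line means of at least 2 or the 3 largest mean changes each way. That rate therefore cannot be set against the 4 flagged here. The groups of a probe set are also not independent, and the 4 values of a group are from different cell lines.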

How the results depend on the processing

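The count of 0 HOX probe sets called between treated and untreated arrays held under all alternatives run. Each of these called 0 of all probe sets, so the HOX count could not have differed. Without the cell line as a block (no replicate block) the median HOX change was -0.016, as in the paired analysis. Leaving out a line moved that median between -0.028 and 0.013. The F test between lines called 11 of the 12 HOX probe sets left by the low value filter (91.8% of all), 12 when a range of at least 1 was also required, and 17 to 22 with a line left out (53.8% to 61.9% of all). Of the counts against the other lines, the higher count in SKOV-3 was 3 with 1 probe set per gene and 2 to 8 with a line left out, in DOV-13 1 to 4, in OVCAR-3 1 to 2, and the lower count 0 to 4 in CAOV-3 and 0 to 1 in DOV-13. With 1 probe set per gene CAOV-3 had 1 lower and OVCAR-3 had 3, and with the low value filter CAOV-3 had 1 higher and OVCAR-3 had 0. With the adjusted p alone the higher counts were 12 in SKOV-3, 9 in DOV-13, 8 in CAOV-3 and 3 in OVCAR-3, and the lower counts 7, 6, 10 and 14. The low value filter and the use of 1 probe set per gene leave fewer probe sets to test. At the 60th percentile of the array 7 HOX probe sets were counted in SKOV-3, 8 in DOV-13, 6 in CAOV-3 and 5 in OVCAR-3, and at the 75th 5, 4, 3 and 2. Quantile normalization again, median centring, eBayes with trend and robust and the fit without the treatment term left each count within 1.5 times its value. Dim probe sets limit what can be seen, since 14 of 31 lay below the median on every array.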

Other observations

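A further 3 probe sets carry HOXD3, HOXD4 and a neighbouring locus together in the annotation and were not counted among the HOX probe sets. They lay below the array median on all 8 arrays. The brightest had line means of 5.17 in CAOV-3, 4.64 in SKOV-3, 4.64 in DOV-13 and 4.44 in OVCAR-3, so CAOV-3 was its highest line, as it was for the HOXD4 probe set. In CAOV-3 it differed by -0.39 between the treated and the untreated array. The dimmer ones were highest in SKOV-3, with ranges of 0.08 and 0.20, and did not pass limma's F test (adjusted p = 0.802 and 0.315).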
